A study of Mus musculus with 6 samples.

Results

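The genes described here are 9 Krüppel-like factors (Klf2, Klf3, Klf4, Klf6, Klf7, Klf9, Klf10, Klf12 and Klf13) and S1pr1, the receptor gene that Klf2 is best known for switching on in T cells. They were taken by name from the series' table of array values, and each was represented by the probe set with the highest mean that is linked to that gene alone. All 10 were found, each with exactly 1 such probe set, among 19938 genes in all.

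The samples were 6 arrays of mouse cells at 3 stages, 2 arrays each. The HSC samples were bone marrow cells transduced with the fusion gene Nup98-HoxB4, which lets blood progenitors keep growing in culture, and expanded with IL6 and SCF. The ProT samples were transduced cells of the same kind grown with the Notch ligand DLL4 and with IL7, which steers them to the T lineage. The DP samples were CD4 and CD8 double positive thymocytes that formed after such ProT cells were injected into a Rag2-/- mouse, whose own lymphocytes cannot rearrange receptor genes. All 3 groups carry Nup98-HoxB4, so none of them is an unmodified population, and the cells that a Rag2-/- host keeps (stroma, myeloid and NK cells) were present where DP cells formed. Neither the age of the mice nor the isolation of the DP cells is given in the sources used here. Nor is it stated that replicates are independent cultures or mice, so p-values measure the spread between these arrays, which may be technical.

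Krüppel-like factors bind GC-rich DNA, above all the CACCC box, through a row of zinc fingers close to the end of the protein, while the rest of the protein differs and decides whether a target is activated or repressed. In T cells Klf2 is known to hold cells in a resting state and to switch on the genes a cell needs to travel, S1pr1 among them. S1PR1 senses sphingosine-1-phosphate (S1P), a lipid that is abundant in blood and lymph and scarce inside tissue, and mature thymocytes follow that gradient to leave the thymus. CD69 pulls S1PR1 off the cell surface and so opposes exit.

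Each value below is a log2 signal, on which a step of 1 is a doubling of signal. A gene was called changed at an adjusted p below 0.05 in limma (Benjamini-Hochberg over all 19938 genes), and errors of a difference are limma's standard errors. Signals of different probe sets cannot be ranked against each other, so comparisons are between stages within a gene. The median of all gene values was 7.17, and signals below it were not shown to lie above background. Of the 10 members, 7 lay at or above it on every array, Klf12 lay below it on all 6 arrays, Klf4 on 4 arrays and S1pr1 on 1. Taken over all probe sets, arrays had medians of 6.73 to 6.91, and replicate arrays correlated at 0.991 to 0.997.

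The labels were checked against defining genes. Of 7 measured stem and progenitor markers 7 were lower in DP than HSC, but from HSC to ProT 2 fell (Mecom and Tal1), 1 rose (Kit, by 0.72) and Cd34 read -0.06. The call on Tal1 (-0.42) was lost after quantile normalization and with a replicate block. All 7 measured ProT markers were higher in ProT than HSC, and also in DP than HSC. Of 7 DP markers 7 were higher in DP than ProT. Markers of other cells also moved. From ProT to DP, 5 of 5 B cell and 5 of 6 stromal and thymic epithelial markers rose (4 and 3 after quantile normalization, 5 and 6 under median centring), the summed log2 signal of the B cell list going from 30.9 to 31.3 in ProT to 36.4 to 36.5 in DP, and that of the stromal list from 39.2 to 39.9 to 44.0 to 44.4. No signal on these arrays is a 0, but 4 of the 5 B cell markers (all but Cd79b) and 3 of the 6 stromal markers still had a DP mean below 7.17. In ProT, 4 of 6 NK markers were higher than in HSC (summed log2 signal 40.0 to 40.3 in HSC and 50.7 to 51.4 in ProT). Of 5 measured markers of mature single positive T cells, 3 rose and 1 fell from HSC to DP. From ProT to DP, 2 of them rose and 1 fell. At that step the mean of Cd40lg went from 4.73 to 7.48 and that of Ccr7 from 8.98 to 11.12, while that of Itgb7 went from 10.94 to 8.61. The part of these cells in the results was not tested, and in such bulk samples fewer cells of a type and less RNA per cell cannot be told apart.

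From HSC to ProT, 3 of the 10 members rose (S1pr1, Klf4 and Klf13) and 0 fell. Over all genes, 7.85% rose and 6.90% fell. At an unadjusted p below 0.05 in limma, 4 members were higher and 1 was lower (Klf9), beside 2576 and 2701 of the 19938 genes. At an adjusted p below 0.05, 14.7% of all genes changed in either direction. Into DP from ProT, 3 members rose (Klf3, Klf7 and Klf13) and 3 fell (Klf9, Klf4 and Klf10), beside 14.5% and 18.1% of all genes, or 32.6% in either direction. From HSC to DP, 4 rose (S1pr1, Klf3, Klf7 and Klf13) and 1 fell (Klf9), beside 16.0% and 18.8%, or 34.9% in either direction. ProT was also set against the midpoint of HSC and DP: 3 members lay above it (S1pr1, Klf4 and Klf10) and 2 below (Klf7 and Klf3), beside 11.8% and 9.17% of all genes, or 21.0% in either direction. The midpoint calls of Klf3 and Klf10 were lost without either ProT or either DP array, that of Klf10 also without HSC replicate 2, under median centring and with a replicate block (adjusted p = 0.0673), and that of Klf7 without ProT replicate 1 or either DP array. The members thus changed in both directions, and their median difference was 0.25, -0.05 and 0.33 in the 3 comparisons, beside -0.01, 0.02 and 0.02 over all genes. The 10 genes were chosen with results of these data known. In at least 1 comparison between stages 7 members changed, beside 43.5% of all genes, and Klf2, Klf6 and Klf12 changed in none. When each array was centred on its median, the median of all genes from ProT to DP moved from 0.02 to 0.14, and all-gene calls went from 2899 higher and 3607 lower to 4680 and 2967. From HSC to ProT the same centring turned 1565 higher and 1375 lower into 1345 and 1739.

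**Figure D1:**
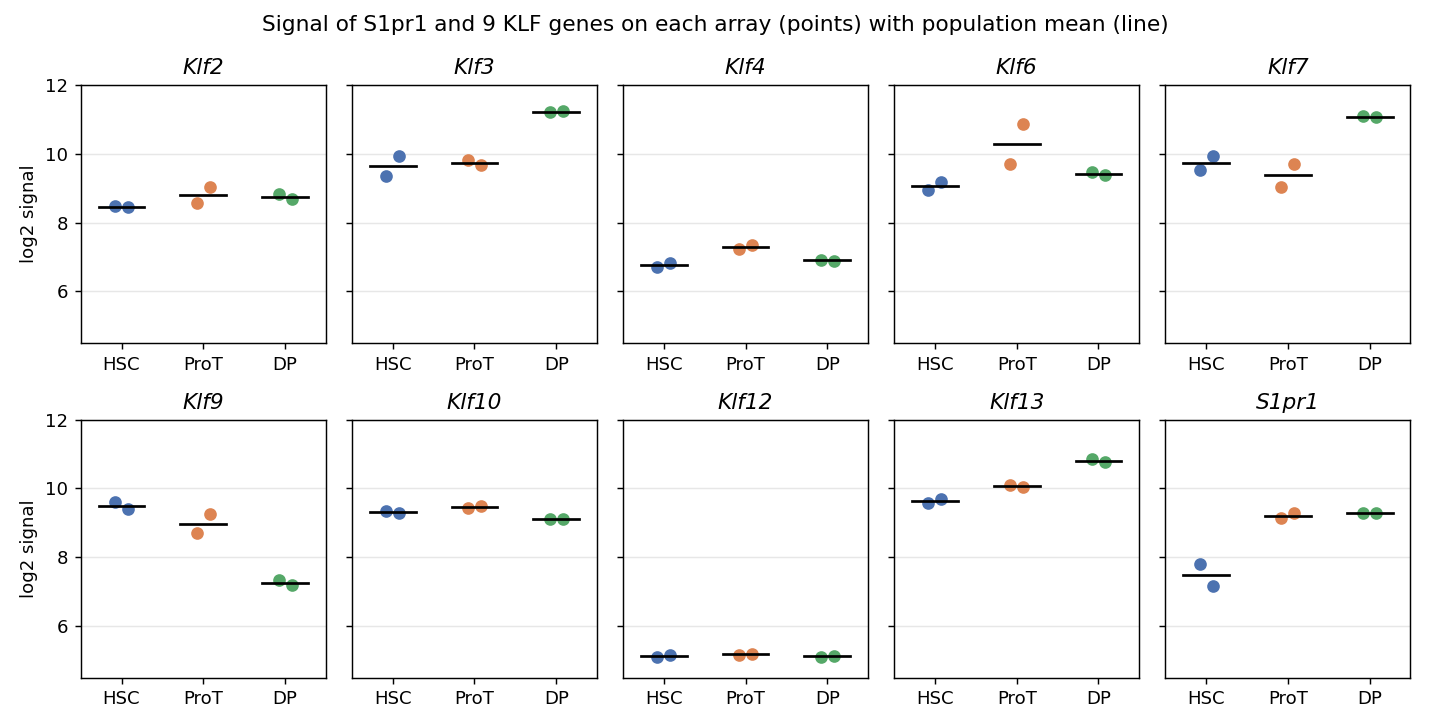
Log2 signal (y axis) of each of the 10 genes on each of the 6 arrays, by population (x axis); points are arrays and lines the population means. S1pr1 is low on both HSC arrays (7.80 and 7.16) and between 9.13 and 9.29 on the other 4, while Klf3, Klf7 and Klf13 are highest, and Klf9 lowest, on both DP arrays.

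Klf2, the factor that holds T cells at rest, read 8.48 and 8.44 in HSC, 8.58 and 9.03 in ProT, and 8.82 and 8.69 in DP. The HSC arrays lay below all others, and ProT and DP overlapped, the DP values falling between those of ProT. The difference from HSC to ProT was 0.35 ± 0.15 (adjusted p = 0.224), with a 95% interval of -0.03 to 0.72. From ProT to DP it was -0.05 ± 0.15 (adjusted p = 0.848, interval -0.43 to 0.32), a sign that turned under median centring (0.07), without ProT replicate 2 (0.17) and without DP replicate 2 (0.01). From HSC to DP it was 0.30 ± 0.15 (adjusted p = 0.206). Klf2 did not pass the test at either step, and these intervals leave room for a rise of up to 0.72 on the log2 scale in culture. Without ProT replicate 1 the first step was called, at 0.57 (adjusted p = 0.0336), and without ProT replicate 2 it was 0.12 (adjusted p = 0.587). Among 10891 other genes with a stage mean of at least 7.17, the centred 6-array patterns nearest to Klf2 were those of Tuba1a, Zfp53 and Dock10, at Euclidean distances of 0.18, 0.20 and 0.21.

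The stretch before the Klf2 start site is shown because FOXO and MEF2 factors, known to act on Klf2, are among the genes measured below. It is the 250 bases before the start in RefSeq (GRCm38.p6, chr8:72318812-72319061, plus strand), printed 5′ to 3′. Here and below capitals mark each match, on either strand, to CACCC, to GGGCGG (the GC box), to GTAAACA (the letters FOXO factors favour) or to CTA and TAG with any 4 bases between them (the frame of a MEF2 site, its own reverse complement).
Klf2: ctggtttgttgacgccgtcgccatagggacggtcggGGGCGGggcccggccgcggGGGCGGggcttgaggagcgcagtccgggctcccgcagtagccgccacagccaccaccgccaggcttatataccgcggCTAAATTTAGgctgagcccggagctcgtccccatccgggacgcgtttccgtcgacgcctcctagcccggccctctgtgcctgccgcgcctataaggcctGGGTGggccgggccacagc
The window held 1 CACCC match, 2 GC boxes and 1 MEF2-type match that began 118 bases before the start, and 0 FOXO-type matches. Of 32851 promoter windows of the same length, 52.0% held CACCC, 32.7% a GC box, 3.17% the FOXO-type and 3.20% the MEF2-type letters. A match describes the letters, not a bound site.

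Of 20 measured regulators of Klf2 and KLF cofactors, 5 rose and 2 fell from HSC to ProT, with a median difference of 0.02, where 14.7% of all genes changed. Into DP from ProT 9 rose and 1 fell, with a median of 0.30, where 32.6% of all genes changed. Foxo1, which switches on Klf2 in resting T cells, read 8.42 ± 0.16 in HSC, 9.69 ± 0.02 in ProT and 10.39 ± 0.06 in DP (mean ± SD, n = 2). It rose by 1.27 ± 0.10 (adjusted p = 0.000681) and then by 0.70 ± 0.10 (adjusted p = 0.00319). Mef2a, of the MEF2 family through which the ERK5 kinase induces Klf2, went from 10.26 ± 0.30 in ProT to 12.61 ± 0.01 in DP, and Mef2d rose by 1.06 ± 0.15. Fbxw7, a ubiquitin ligase subunit that marks KLF2 for breakdown, rose in ProT by 0.79 ± 0.17 (adjusted p = 0.0286). That call was lost without HSC replicate 2 or any 1 of the ProT or DP arrays, and with the mean of its probe sets. Ctbp2, a corepressor that Klf3 and Klf12 recruit, fell at both steps, by 1.33 and by 1.47 on the log2 scale, from 10.09 ± 0.17 to 7.29 ± 0.05. Its relative Ctbp1 read 0.19 ± 0.07 from HSC to ProT (adjusted p = 0.165) and 0.10 ± 0.07 from ProT to DP (adjusted p = 0.396), and over both steps it rose by 0.29 (adjusted p = 0.027).

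S1pr1, the S1P receptor, read 7.80 and 7.16 in HSC, 9.13 and 9.28 in ProT, and 9.29 and 9.28 in DP. Both HSC arrays were lower than the other 4, which lay within a narrow band where ProT and DP overlapped. From HSC to ProT the signal rose 3.31-fold, a difference of 1.73 ± 0.20 (adjusted p = 0.00349). From HSC to DP it rose 3.50-fold, by 1.81 ± 0.20 (adjusted p = 0.0011). Between ProT and DP the difference was 0.08 ± 0.20 (adjusted p = 0.824), with a 95% interval of -0.42 to 0.58. The order was thus HSC below ProT and DP, and the last 2 did not differ beyond their spread. The ProT mean lay 0.82 ± 0.18 above the midpoint of HSC and DP (adjusted p = 0.0243). Without a ProT or a DP array that call was lost, with adjusted p = 0.0871 and 0.11 without ProT replicates 1 and 2, and 0.1 and 0.104 without DP replicates 1 and 2.

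The HSC replicates of S1pr1 differed by 0.64, and 3.61% of all genes differed at least as much there. The rise into ProT was 2.04 without HSC replicate 1 and 1.41 without HSC replicate 2. It was called in all 15 alternatives, some of which repeat each other. Endothelial cells also make S1pr1. Of 10 endothelial markers 0 rose and 0 fell from HSC to ProT in limma (1 higher and 0 lower at an unadjusted p below 0.05), and the list's summed log2 signal was 66.1 to 68.6 in HSC and 66.7 to 68.0 in ProT, with 8 of 10 markers, Cdh5, Kdr, Tek and Vwf among them, below 7.17 in both. From ProT to DP 3 endothelial markers rose and 0 fell (2 and 1 after quantile normalization, 5 and 0 under median centring). From HSC to DP 3 rose and 1 fell (3 and 1 after quantile normalization, 6 and 1 under median centring). The list's summed log2 signal was 67.9 to 68.0 in DP, with the same 8 means below 7.17. The part of endothelial cells in the S1pr1 signal was not tested. NK markers rose into ProT together with S1pr1, as given above. From ProT to DP 4 of the 6 NK markers fell and 0 rose (summed log2 signal 42.9 to 44.1 in DP), while S1pr1 differed by 0.08. The part of NK cells in the S1pr1 values was not tested. The part of mature single positive T cells, whose markers are given above, in the DP signal of S1pr1 was not tested either. The genes nearest to S1pr1 in their centred pattern over the 6 arrays were Mex3b, Faah and Hdhd5, at distances of 0.37, 0.40 and 0.43. Mex3b read 8.24 and 8.04 in HSC, 9.88 and 9.83 in ProT, and 10.09 and 10.03 in DP.

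The other S1P receptors had patterns of their own. S1pr3, a receptor that couples to several G proteins, read 9.32 ± 0.24 in HSC, 10.88 ± 0.03 in ProT and 7.58 ± 0.09 in DP. It rose into ProT by 1.56 ± 0.13 (adjusted p = 0.00085) and fell into DP 9.86-fold, by 3.30 on the log2 scale (adjusted p = 2.87e-05). S1pr1 and S1pr3 both rose in culture, and in DP the first read close to its ProT level while the second was below its HSC level. S1pr4, a receptor of blood cells, read 8.89 ± 0.48, 9.47 ± 0.08 and 9.42 ± 0.03 in the same order and passed no test. S1pr2 fell from HSC to DP by 0.72 on the log2 scale (adjusted p = 0.0291), and S1pr5 stayed below 7.17 in each stage mean. The call on S1pr2 was lost without HSC replicate 2 and without either DP array. Whether the receptors' differences differ from each other was not tested.

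**Figure D2:**
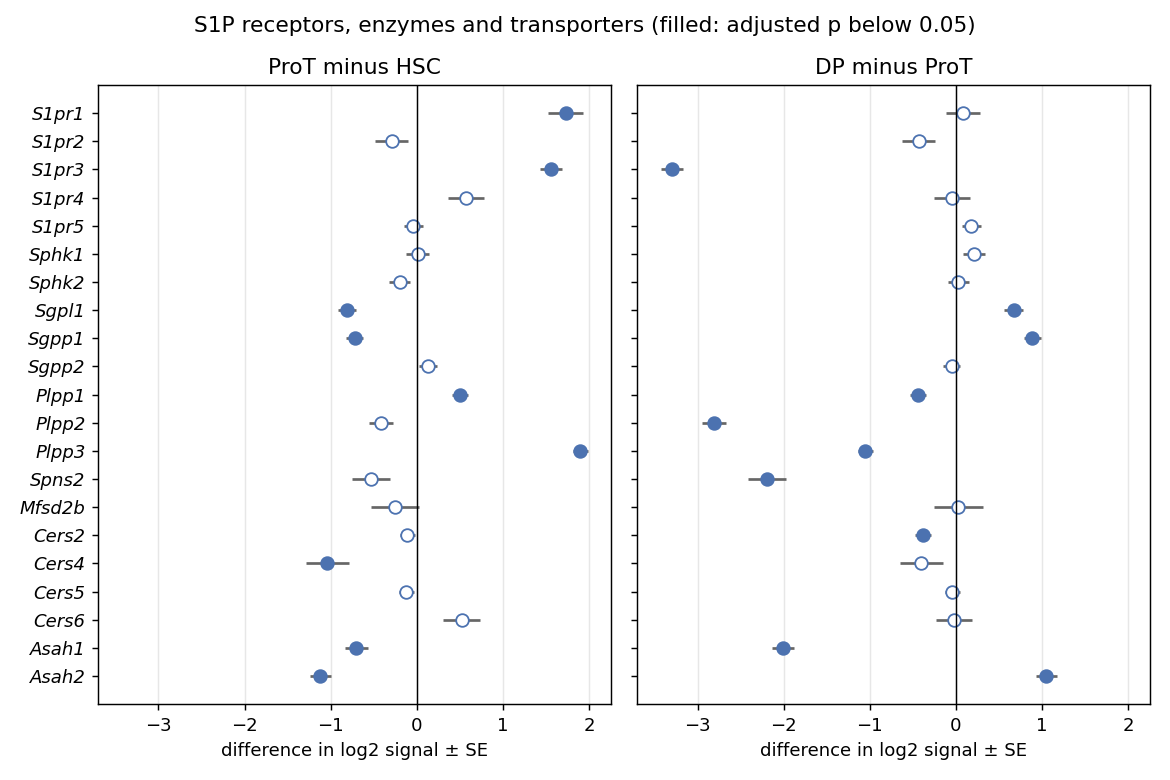
Difference in log2 signal (x axis, points with standard error bars) for S1pr1 and 20 other genes of S1P sensing and metabolism (y axis), from HSC to ProT on the left and from ProT to DP on the right; filled points have an adjusted p below 0.05. S1pr1 and S1pr3 both stand to the right in ProT (1.73 and 1.56), and S1pr3 stands furthest to the left in DP (-3.30).

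Of 20 measured genes of S1P sensing and metabolism other than S1pr1, 3 rose and 5 fell from HSC to ProT, with a median difference of -0.16. At the next step 3 rose and 7 fell, with a median of -0.05. Over all genes 14.7% changed at the first step and 32.6% at the second. Plpp3, a membrane phosphatase that breaks down S1P outside the cell, rose into ProT by 1.90 ± 0.09 (adjusted p = 8.75e-05) from an HSC mean of 5.93, and fell again by 1.05. Sgpl1 and Sgpp1, the lyase and the phosphatase that clear S1P inside the cell, were lowest in ProT. Sgpp1 read 10.52 ± 0.14, 9.81 ± 0.08 and 10.70 ± 0.06 from HSC to DP, and both of its steps were called (adjusted p = 0.0063 and 0.00133). Sgpl1 fell by 0.81 on the log2 scale and rose by 0.67 ± 0.11, a rise that lost its call without DP replicate 2. The ceramidase gene Asah2 had the same course, 8.55 ± 0.16, 7.43 ± 0.13 and 8.49 ± 0.12.

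Into DP, the phosphatase gene Plpp2 fell 7.03-fold (from 10.56 ± 0.23 to 7.74 ± 0.02, adjusted p = 7.67e-05). Spns2, a transporter that releases S1P from cells, fell 4.56-fold to 7.71 ± 0.17 (adjusted p = 0.000921), and was named after its values were seen. The kinases that make S1P did not pass in any comparison: Sphk1 read 0.01 ± 0.13 and Sphk2 -0.20 ± 0.12 from HSC to ProT (adjusted p = 0.985 and 0.392). Sphk1 had stage means of 6.71, 6.72 and 6.94, below 7.17, and was not shown to read above background. Cers4, a ceramide synthase, fell into ProT by 1.04 on the log2 scale (adjusted p = 0.0471), and that call was lost without any 1 of the ProT or DP arrays.

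Of 15 measured genes that carry the S1PR1 signal or set its place on the cell, 1 rose and 0 fell from HSC to ProT (4 and 0 at an unadjusted p below 0.05). The 1 call, on Dock2 (0.29 ± 0.07, adjusted p = 0.0487), was lost under 14 of 15 alternatives, some of which repeat each other. Into DP, 6 rose and 2 fell, where 32.6% of all genes changed. Stk4, the kinase MST1 that thymocytes need for exit, rose by 0.76 ± 0.08 (adjusted p = 0.00105) and Coro1a, an actin regulator of the same path, by 0.65 ± 0.07 (adjusted p = 0.00125). Arrb1, an arrestin that helps to take receptors off the surface, fell by 1.25 on the log2 scale, and the G protein subunit gene Gng2 by 1.17. Gnai2, the main inhibitory G protein of lymphocytes, read 12.74 ± 0.04, 12.80 ± 0.01 and 12.76 ± 0.03 and passed no test. Cd69, which draws S1PR1 inside, read 10.06 and 10.06 in HSC, 10.22 and 11.44 in ProT, and 10.29 and 10.27 in DP. The ProT arrays stood far apart, and no comparison passed (0.77 ± 0.36 from HSC to ProT, adjusted p = 0.26).

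Of 17 measured genes of trafficking and rest that are linked to Klf2, 6 rose and 1 fell from HSC to ProT (median 0.16), beside 7.85% and 6.90% of all genes. Into DP 12 rose and 1 fell (median 0.85), beside 14.5% and 18.1% of all genes. The list was chosen with results of these data known. The chemokine receptor Ccr9 and the IL7 receptor gene Il7r rose into ProT by 5.85 ± 0.13 and 5.17 ± 0.17, from HSC means below 7.17. Into DP the largest rises were those of Ccr7, a receptor for homing to lymph nodes, from 8.98 ± 0.19 to 11.12 ± 0.00 (adjusted p = 6.83e-05), and of Ccr9 (1.83 ± 0.13). Il7r did not pass there (-0.36 ± 0.17, adjusted p = 0.187). Itgb7, an integrin chain for gut homing, rose into ProT by 2.67 ± 0.23 and fell into DP (-2.33 ± 0.23). Il6ra, a chain of the IL6 receptor, fell into ProT (-2.45 ± 0.16) and rose into DP by 0.99 ± 0.16, a rise not called without DP replicate 2. Rasgrp2, an activator of the adhesion switch Rap1, passed in no comparison (0.11 ± 0.09 and -0.04 ± 0.09). Most of these genes are known to have other inputs too, and KLF2 activity itself was not measured.

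Klf3, Klf7 and Klf13 were the members that rose into DP. Klf3, a repressor that works with CtBP, read 9.34 and 9.92 in HSC, 9.81 and 9.66 in ProT, and 11.21 and 11.23 in DP. Both DP arrays lay above the other 4, and the ProT values fell between those of HSC. The rise into DP was 2.79-fold, 1.48 ± 0.19 (adjusted p = 0.00217). The step before it was 0.10 ± 0.19 (adjusted p = 0.822, interval -0.36 to 0.57), and turned to -0.19 without HSC replicate 1. From HSC to DP the gene rose by 1.59 ± 0.19 (adjusted p = 0.00134).

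Klf7, known from the developing nervous system, read 9.53 and 9.93 in HSC, 9.03 and 9.71 in ProT, and 11.09 and 11.06 in DP. DP stood above all other arrays, while HSC and ProT overlapped. The rise into DP was 3.26-fold, 1.70 ± 0.24 (adjusted p = 0.00323), after a difference of -0.36 ± 0.24 from HSC to ProT (adjusted p = 0.442). Against HSC the DP value was higher by 1.34 ± 0.24 (adjusted p = 0.007), a call lost without either DP array, when the HSC and ProT pairs set the spread (adjusted p = 0.0607 in both cases). The ProT arrays of Klf7 differed by 0.68, which 2.13% of all genes reached.

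Klf13, an activator of the chemokine gene Ccl5 in T cells, read 9.59 and 9.70 in HSC, 10.11 and 10.03 in ProT, and 10.86 and 10.76 in DP. No 2 stages overlapped, and the order was HSC, ProT, DP. It rose into ProT by 0.43 ± 0.08 (adjusted p = 0.0234) and into DP by 0.74 ± 0.08 (adjusted p = 0.00143), and from HSC to DP 2.25-fold (1.17 ± 0.08, adjusted p = 0.000203). The first rise was not called without HSC replicate 1 (adjusted p = 0.0556), ProT replicate 1 (0.114), ProT replicate 2 (0.0525) or either DP array (0.0647). It was also lost under median centring, at 0.36 (adjusted p = 0.0536). The rise into DP was called without each array in turn, as were those of Klf3 and Klf7. B cell and stromal markers rose at the same step, as given above, and their part in these 3 rises was not tested.

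**Figure D3:**
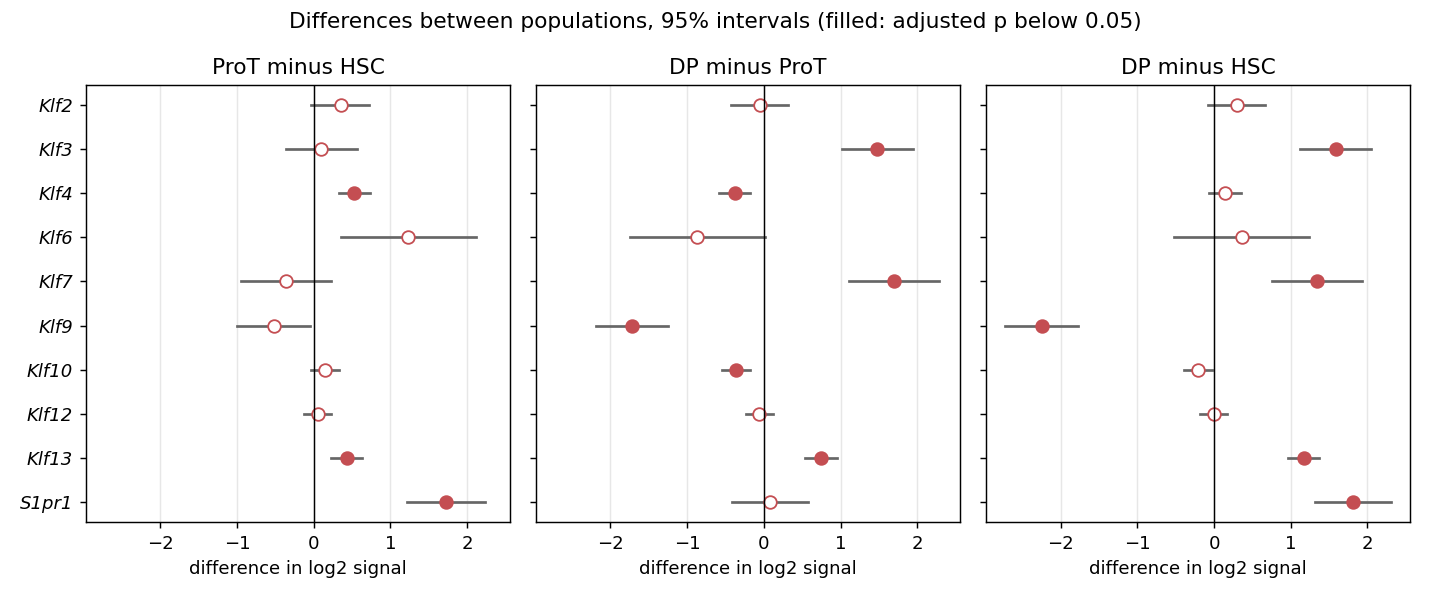
Difference in log2 signal (x axis) of each of the 10 genes (y axis) in the 3 comparisons, with 95% intervals from limma; filled points have an adjusted p below 0.05. The middle panel has Klf3, Klf7 and Klf13 to the right (1.48, 1.70 and 0.74) and Klf9 to the left (-1.72), with S1pr1 at 0.08.

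The windows before the start sites of these 3 genes and of Klf9, which fell, are shown to set side by side the letters that KLF and SP factors read. They are the 250 bases before the start in RefSeq (GRCm38.p6), at chr5:64803271-64803520 (plus strand) for Klf3, chr1:64121390-64121639 (minus strand) for Klf7, chr7:63938916-63939165 (minus strand) for Klf13 and chr19:23140976-23141225 (plus strand) for Klf9. Each is printed 5′ to 3′ on the gene's strand with the same capitals as before.
Klf3: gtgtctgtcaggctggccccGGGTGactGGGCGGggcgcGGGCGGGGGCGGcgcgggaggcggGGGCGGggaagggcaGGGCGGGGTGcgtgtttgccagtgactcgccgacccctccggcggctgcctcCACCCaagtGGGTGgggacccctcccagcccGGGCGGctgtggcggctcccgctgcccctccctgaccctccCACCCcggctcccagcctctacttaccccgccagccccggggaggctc
Klf7: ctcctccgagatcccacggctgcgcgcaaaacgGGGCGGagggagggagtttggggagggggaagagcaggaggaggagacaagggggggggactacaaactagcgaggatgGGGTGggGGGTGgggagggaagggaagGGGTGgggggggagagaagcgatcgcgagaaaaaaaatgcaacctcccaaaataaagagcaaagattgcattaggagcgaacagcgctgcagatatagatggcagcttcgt
Klf13: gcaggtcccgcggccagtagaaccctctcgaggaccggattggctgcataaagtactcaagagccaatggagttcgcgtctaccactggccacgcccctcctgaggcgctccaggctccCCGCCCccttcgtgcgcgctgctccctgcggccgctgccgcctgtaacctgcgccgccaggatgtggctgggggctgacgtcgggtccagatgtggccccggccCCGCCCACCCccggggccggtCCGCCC
Klf9: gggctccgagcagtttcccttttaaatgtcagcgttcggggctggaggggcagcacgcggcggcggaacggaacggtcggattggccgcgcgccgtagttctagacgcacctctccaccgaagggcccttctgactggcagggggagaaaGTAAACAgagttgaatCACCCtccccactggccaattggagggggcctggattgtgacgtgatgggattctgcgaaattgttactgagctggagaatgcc
Klf3 held 5 CACCC matches and 6 GC boxes, Klf7 held 3 and 1, and Klf13 held 1 and 3, of which 1 CACCC match overlaps a GC box. In the Klf3 window 1 match of each kind also overlap. Klf9 held 1 CACCC match and 0 GC boxes, and its 1 FOXO-type match began 100 bases before the start. The windows were 78.4%, 59.2%, 71.6% and 59.6% G or C in that order, beside a median of 52.4% over all windows. Of the 8 members with a window, 6 held a CACCC match and 6 a GC box.

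Klf9, a factor known to respond to thyroid and glucocorticoid hormones, had the largest fall among the members. It read 9.61 and 9.39 in HSC, 8.70 and 9.26 in ProT, and 7.33 and 7.18 in DP. No stages overlapped, and both DP arrays were close to the median of all gene values. The fall into DP was 3.29-fold, a difference of -1.72 ± 0.19 (adjusted p = 0.00136), and from HSC to DP 4.73-fold, -2.24 ± 0.19 (adjusted p = 0.000394). The step from HSC to ProT, -0.52 ± 0.19, did not pass (adjusted p = 0.15), but did without ProT replicate 2 (-0.80, adjusted p = 0.0225), and was -0.24 without ProT replicate 1 (adjusted p = 0.429). The ProT arrays differed by 0.56, a gap that 3.39% of all genes reached.

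Klf10 and Klf4 made smaller moves. Klf10, an early gene of the TGF-beta response, read 9.35 and 9.28 in HSC, 9.44 and 9.50 in ProT, and 9.10 and 9.12 in DP. The stages did not overlap, and the fall into DP was -0.36 ± 0.07 (adjusted p = 0.0127). That call was lost without ProT replicate 2 (adjusted p = 0.0599), DP replicate 1 (0.0797) or DP replicate 2 (0.0736), and with a trended robust prior (0.0508). Klf10 did not pass from HSC to ProT (0.15 ± 0.07, adjusted p = 0.268) or from HSC to DP (-0.21 ± 0.07, adjusted p = 0.0759).

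Genes of the TGF-beta pathway, which induces Klf10, rose in 4 of 10 cases and fell in 0 from HSC to ProT (median 0.25). Into DP 3 rose and 3 fell (median -0.04). Of all genes 14.7% and 32.6% changed at these steps. Smad7, the inhibitor that the pathway induces, read 8.10 ± 0.01, 9.34 ± 0.09 and 7.90 ± 0.08, up by 1.24 ± 0.08 and down by 1.45 (adjusted p = 0.000402 and 0.000123). Smad3, which carries the signal, rose into ProT by 1.05 ± 0.09 (adjusted p = 0.00127). Tgfb1, the ligand, fell into DP by 1.05, and the inhibitor Skil rose by 1.44 ± 0.20. Smad2 passed neither step (0.19 ± 0.08 and 0.06 ± 0.08).

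Klf4, known for driving monocyte differentiation and for slowing division in T cells, read 6.70 and 6.81 in HSC, 7.22 and 7.35 in ProT, and 6.91 and 6.89 in DP. ProT lay above the other stages on both arrays, but only its 2 values exceeded 7.17, so the gene was near the level at which signal was not shown to exceed background. It rose into ProT by 0.53 ± 0.08 (adjusted p = 0.0101) and fell into DP by 0.38 (adjusted p = 0.0162). The fall was not called under median centring (-0.26, adjusted p = 0.0594), without ProT replicate 2 (adjusted p = 0.0748) or without DP replicate 1 or 2 (0.0883 and 0.0984). The difference from HSC to DP was 0.14 ± 0.08 (adjusted p = 0.252), and -0.02 after quantile normalization. Of the 9 monocyte and macrophage markers, 5 fell and 1 rose from HSC to ProT, and 2 fell and 3 rose from ProT to DP. Their summed log2 signal was 78.9 to 81.8 in HSC, 67.0 to 69.6 in ProT and 66.3 to 66.7 in DP. The part of such cells in the Klf4 values was not tested.

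Klf6, a factor that many stimuli induce at once, read 8.94 and 9.18 in HSC, 9.71 and 10.87 in ProT, and 9.46 and 9.38 in DP. The ProT arrays were the highest but differed by 1.17, a gap that 0.396% of all genes reached. The rise into ProT, 1.23 ± 0.36, did not pass (adjusted p = 0.0786, or 0.0424 without dim genes), nor did the difference to DP, -0.87 ± 0.36 (adjusted p = 0.123). Without ProT replicate 1 the rise was 1.81 (adjusted p = 0.00195) and the fall -1.45 (adjusted p = 0.00221). Without ProT replicate 2 they were 0.65 (adjusted p = 0.0388) and -0.29 (adjusted p = 0.198).

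Of the 10 members, 8 were higher on ProT replicate 2 than on replicate 1, with a median gap of 0.14. Of all 19938 genes 8290 were, with a median gap of -0.03. Klf2 differed by 0.45, Klf7 by 0.68 and Klf9 by 0.56. In a list of immediate early and heat shock genes written after these values were seen, some immediate early genes were also higher on that array: Egr2 by 1.22, Dusp1 by 1.15, Fos by 1.11 and Egr1 by 1.06. Others of the list were not, with Atf3 at -0.23, Dusp2 at -0.22 and Jund at -0.15, and the heat shock genes Hspa1a and Hsph1 at -0.07 and 0.08. Over the list 11 of 17 measured genes were higher on ProT replicate 2 (median gap 0.25). The same number, 11 of 17, were higher on HSC replicate 2 (median gap 0.19), as were 6 of the 10 members and 10046 of all 19938 genes. From HSC to ProT Egr1 rose by 2.52 (adjusted p = 0.00501) and Jun by 1.25 (adjusted p = 0.0252). The part of these genes' difference in the ProT values of Klf6 and Klf2 was not tested. Replicates differed by 0.2 or more for 5 members in HSC, 4 in ProT and 0 in DP, and for 30.9%, 23.6% and 12.7% of all genes, which thus also varied least in DP.

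**Figure D4:**
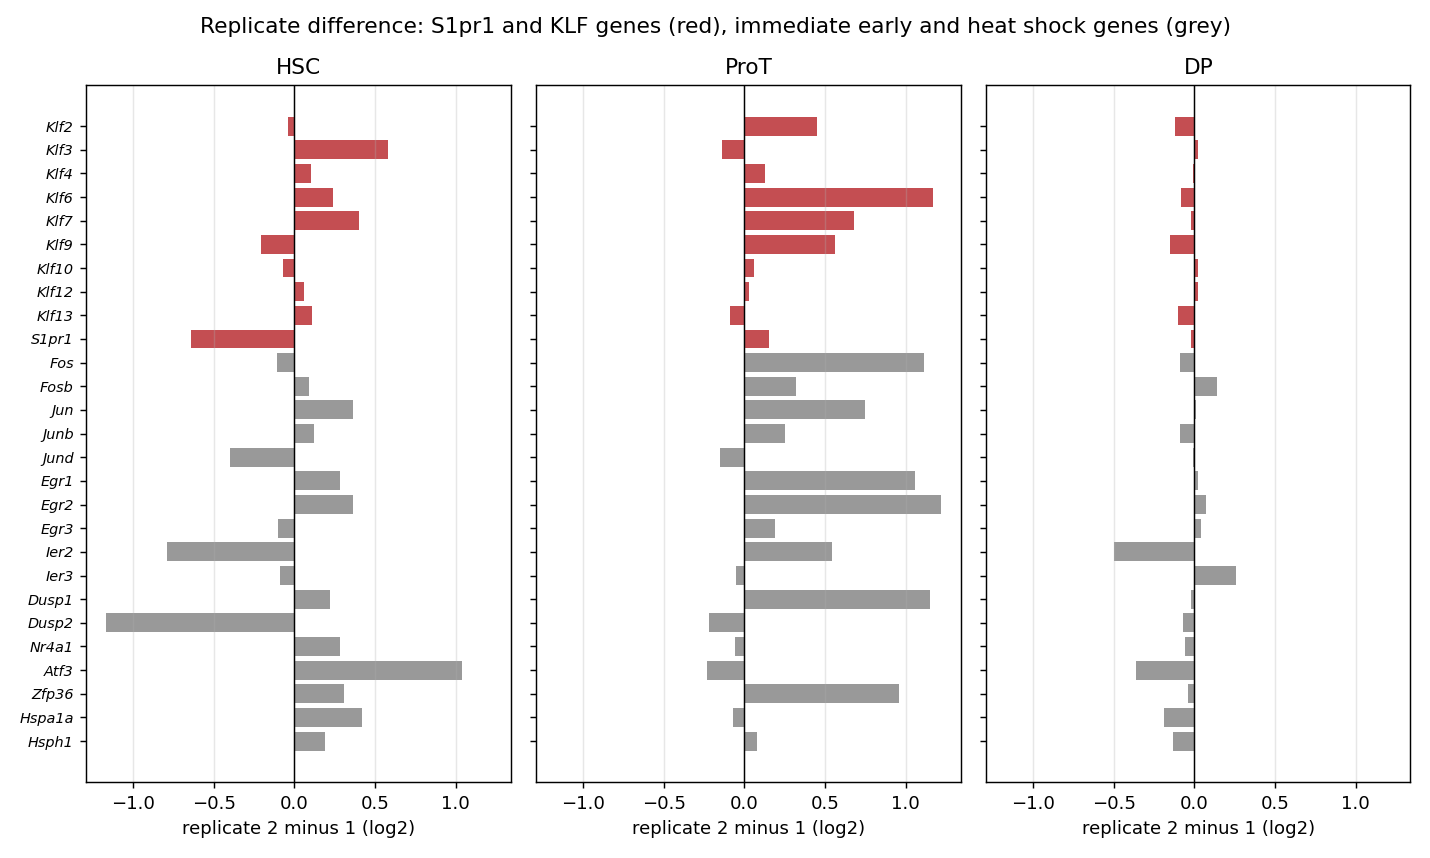
Replicate 2 minus replicate 1 in log2 signal (x axis) for the 10 genes (red bars) and 17 immediate early and heat shock genes (grey bars), 1 panel for each population. In ProT, Klf6 (1.17) stands beside Egr2 (1.22) and Dusp1 (1.15), while in DP all 10 red bars lie between -0.15 and 0.02.

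Klf12, a repressor that also recruits CtBP, read 5.10 and 5.16 in HSC, 5.17 and 5.20 in ProT, and 5.11 and 5.13 in DP. All 6 values lay within 0.10 of each other and below 7.17, and no comparison passed (differences of 0.05, -0.06 and 0.00, each ± 0.07). No change was measurable with this probe set, which was not shown to read above background.

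The rest of the family was measured by 16 other KLF and SP genes. From HSC to ProT 1 rose and 2 fell, from ProT to DP 4 rose and 2 fell, and from HSC to DP 4 rose and 5 fell, where 14.7%, 32.6% and 34.9% of all genes changed. Sp4 rose at both steps, by 1.05 ± 0.18 (adjusted p = 0.0145) and 0.89 ± 0.18 (adjusted p = 0.0131), reading 8.35 ± 0.02, 9.39 ± 0.41 and 10.28 ± 0.00. The second rise lost its call without either DP array, and the first without HSC replicate 2 or either DP array. Sp3, which shares GC boxes with Sp1, rose into DP by 1.09 ± 0.18 (adjusted p = 0.00638), a call also lost without either DP array. Among the alternatives, which include the mean of probe sets, the rise of Sp3 was as small as 0.56. Klf16 fell into DP by 0.71 (adjusted p = 0.00366). Klf8 and Klf5 fell into ProT, by 0.98 and 0.62 (adjusted p = 0.0104 and 0.0181). The stage means of Klf8 were 6.94, 5.96 and 6.17, below 7.17, a level not shown to exceed background. The fall of Klf8 lost its call without ProT replicate 1, and that of Klf5 without HSC replicate 2 or either DP array. Klf14 and Sp9 passed in no comparison.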

How the data were processed

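Total RNA from 2 HSC, 2 ProT and 2 DP samples was labelled with biotin and hybridized to Affymetrix arrays, per the labels' protocols. The authors deposited log2 signals for 35556 probe sets, made with RMA and Partek per the submitters' processing notes. No version, setting or background call is named in the sources used here. RMA draws low signals together, so differences at low signal are understated.

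Of these probe sets 21789 were linked to 1 gene by the platform's annotation (19938 genes); of several for a gene, the one with the highest mean stood for it. Values were fitted with limma 3.58.1 (R 4.3.3), 1 mean per population over all 6 arrays, and eBayes (3 residual and 2.83 prior degrees of freedom). No dim genes were removed and no replicate block was used. Genes and lists were chosen with earlier results of these data known, and list p-values were not computed. Genes other than the 10 were named as the largest called rises and falls of a list, with up to 2 that did not pass. Others (among them the remaining S1P receptors, Cd69, Fbxw7, Sgpl1, Sgpp1, Asah2, Ctbp1 and Sp3) were named after their values were seen, for their known roles. Some listed genes, Cdkn1a, Grk2 and Sp2 among them, are not analysed here. The fit was tested on simulated data for ProT against HSC. A log2 change of 0.5 was called in 2 of 50 genes, of 1 in 37, and of 2 and 4 in 49 each. The simulation had 146 calls in all, beside 1565 higher and 1375 lower in the data, so its rates may not hold there. Promoter windows came from RefSeq (GRCm38.p6), with 8 of 10 genes matched. Alternatives were to centre arrays on their median, to quantile normalize them, to drop dim genes, to take the mean of probe sets, to change the prior, to fit 2 populations alone, to add a replicate block, to tighten thresholds and to leave out each array. Figures were drawn with matplotlib 3.10.9 under Python 3.11.15.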

Additional observations from a re-analysis of the deposited data

How the results depend on the processing

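Among the members' values under alternative settings, 507 kept direction and side of the threshold, 54 were no longer called, 13 became called and 12 changed sign. The rises of S1pr1 into ProT, of Klf3 and Klf7 into DP, and the fall of Klf9 into DP were called in all 15 alternatives. These alternatives overlap and are not 15 separate tests. For 2 stages compared, fitting them alone was the same fit as leaving out either array of the third stage. With an adjusted p below 0.01, 1 member was higher in ProT than HSC and 1 lower in DP than ProT, beside 891 and 2396 of the 19938 genes. At that threshold 1 member lay off the HSC to DP midpoint in ProT (5 with all arrays at 0.05), beside 1251 genes above it and 750 below. With a log2 change of at least 1 the same 3 counts of members were 1, 1 and 1. Over all genes 692 were then higher in ProT than HSC and 1420 lower in DP than ProT, with 750 above the midpoint and 405 below. Without each array in turn, members higher and lower numbered 2 to 4 and 0 to 1 from HSC to ProT, 3 to 3 and 1 to 4 from ProT to DP, and 3 to 4 and 1 to 1 from HSC to DP, and 1 to 5 were off the midpoint. Without a DP array the spread comes from fewer arrays. All sign changes were among differences that did not pass. Under median centring Klf12 read -0.02, 0.07 and 0.05 in the 3 comparisons and -0.04 against the midpoint, and Klf2 0.07 from ProT to DP. Klf4 read -0.02 from HSC to DP after quantile normalization. Without each array in turn Klf3 read -0.19 to 0.39 from HSC to ProT (lowest without HSC replicate 1). Klf12 read -0.03 to 0.02 from HSC to DP, with 0.02 and 0.01 without HSC replicate 2 and DP replicate 1. Klf2 read -0.28 to 0.17 from ProT to DP and -0.02 to 0.43 against the midpoint, with 0.17 and -0.02 without ProT replicate 2, and 0.01 from ProT to DP without DP replicate 2. The cause was not tested. The mean of probe sets leaves each member's value as it is, since each has 1 probe set.

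With the replicate number as a block, 3 members rose and 0 fell from HSC to ProT, beside 1534 and 1311 of all genes. From ProT to DP 3 rose and 3 fell, beside 2722 and 3546. From HSC to DP 4 rose and 1 fell, beside 3060 and 3697. Off the midpoint lay 5 members, beside 2361 genes above it and 1730 below. There Klf10 was lost (adjusted p = 0.0673) and Klf6 gained (adjusted p = 0.047). The block changed no other call on a member. Deviations of same-numbered arrays correlated at 0.058, -0.022 and -0.043 over genes. These values cannot show whether same-numbered samples shared a day, culture or mouse, which the sources used here do not state. The number of arrays and low signal (Klf12, Klf4) limit the precision.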
